A study of Mus musculus with 4 samples.

Results

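SNARE proteins are small membrane-anchored proteins that fuse a vesicle with its target membrane. A SNARE on the vesicle zips up with partner SNAREs on the target membrane, and the bundle is later pulled apart by the ATPase Nsf, which binds it through the adaptors alpha-, beta- and gamma-SNAP (Napa, Napb and Napg). Each trafficking step uses its own set, and in neurons a set with Snap25 and Vamp2 releases synaptic vesicles. In human cell lines, Snap23 and Ykt6 have also been placed in the release of extracellular vesicles, the subject named in the title of the series. The module described here holds 38 of the 27998 genes counted. They were taken by name: the numbered syntaxins (Stx) and vesicle-associated membrane proteins (Vamp), the Snap23, Snap25, Snap29 and Snap47 proteins, the smaller Golgi and endosome SNAREs, and the 4 disassembly factors.

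All cells came from Atoh1-cre:SmoM2 mice, in which a Cre driven by Atoh1 turns on constitutively active Smoothened in granule neuron precursors of the cerebellum, giving medulloblastoma of the Sonic hedgehog type. Tumours of 4 littermates were taken at postnatal day 20, with 1 10x 3' library per mouse. The cells were freed with Accutase and sorted with 7-AAD against dead cells, and sequencing of mouse 1 took place at 2 time points. With 1 group of mice and no normal cerebellum analysed here, the comparisons are between classes of cells within the same 4 mice.

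After filters of at least 500 genes and at most 10% mitochondrial UMIs, 4137 cells remained (1368, 888, 710 and 1171 in mice 1 to 4) of 5670 barcodes, of which 4620 passed the first filter, against 4749 cells stated by the series. UMIs, unique molecular identifiers, count captured transcripts, and the libraries of mice 1 to 4 held 3415171, 2573901, 1679285 and 3801197 of them. Any pair of libraries shared 1 to 5 barcodes. Clusters were built without the SNARE genes and named by markers. Progenitor-like cells were 3464, differentiating granule-like cells 322, astroglia-like cells 166, oligodendrocyte-lineage-like cells 141, myeloid-like cells 39 and choroid-plexus-like cells 5. The number of differentiating cells moved between 103 and 708 with the settings tried. Progenitor-like was the default name within the granule lineage. Its largest cluster (716 cells, median depth 1090 UMIs) had progenitor markers at a median log2 ratio of -0.43 to all granule-lineage cells. Differentiating markers stood at -0.54 in that cluster, and granule-lineage markers at 13.6 UMIs per 10000, so its name rests on the default and not on its markers. Differentiating granule markers stood at 71.4 UMIs per 10000 in the differentiating class and at 20.2 in progenitor-like cells, while the 9 mature granule markers stood at 1.40 and 0.645, with Grin2c and Slc17a7 at 0 UMIs among the 9 in the differentiating class. Granule-lineage markers stood at 17.2 UMIs per 10000 in astroglia-like cells, 7.78 in oligodendrocyte-lineage-like cells and 6.74 in myeloid-like cells, against 23.8 in progenitor-like cells. Genes of this list were thus counted in each of these classes, and whether the transcripts came from tumour cells was not tested.

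All 38 members were detected, with 17175 UMIs in the kept cells or 0.166% of their UMIs. Of these, 28 had at least 100 UMIs and 6 had under 50. Napa had 2452 UMIs and was seen in 40.1% of cells, ahead of Stx6 with 1457 UMIs in 27.4% of cells. Counts such as these compare captured 3' ends and are not divided by transcript length. Among the plasma membrane syntaxins and their Snap partners, Snap25 had 1083 UMIs, Stx4a 450, Snap23 151, Stx1a 95, Stx2 40, Stx3 15, Stx11 4 and Stx19 1. Snap47 and Snap29, which pair with syntaxins inside the cell and lack the membrane anchor of Snap25, had 667 and 127.

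The SNAREs of the endoplasmic reticulum (ER) and Golgi ran from 97 UMIs for Stx17 to 789 for Sec22b, with 722 for Stx5a, 533 for Bet1, 481 for Gosr2, 411 for Ykt6, 325 for Bet1l, 240 for Stx18 and 186 for Gosr1. Those of the trans-Golgi, endosomes and lysosomes were led by Stx6, followed by Stx12 with 1098, Stx16 with 1040, Vti1b with 626, Stx7 with 512, Stx8 with 349 and Vti1a with 100. Among the Vamp proteins, the vesicle-side SNAREs, Vamp4 had 645 UMIs, Vamp3 538, Vamp7 520, Vamp2 388, Vamp8 59, Vamp1 16 and Vamp5 11. The disassembly factors Napg, Nsf and Napb had 393, 325 and 93.

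For 3 members that the results turn on, the 250 bases before the RefSeq gene start (build GRCm38.p6) are printed, 5′ to 3′ on the strand of the gene, because Stx6 was found throughout the tumour lineage, Snap47 in every class and Vamp8 mostly outside the lineage, with 10 of its 59 UMIs in granule-lineage-like cells. Capitals mark matches, on either strand, of the letters GAGGAA (an ETS factor core), CANNTG (E-box), TGGGTGGTC (Gli site), GGGCGG (GC box) and TGACGTCA (CRE).
Vamp8: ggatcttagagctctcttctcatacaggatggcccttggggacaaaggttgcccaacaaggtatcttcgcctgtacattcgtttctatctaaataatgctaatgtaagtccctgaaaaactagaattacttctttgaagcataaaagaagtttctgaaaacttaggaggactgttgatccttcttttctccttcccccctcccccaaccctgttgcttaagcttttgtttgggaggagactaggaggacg
Stx6: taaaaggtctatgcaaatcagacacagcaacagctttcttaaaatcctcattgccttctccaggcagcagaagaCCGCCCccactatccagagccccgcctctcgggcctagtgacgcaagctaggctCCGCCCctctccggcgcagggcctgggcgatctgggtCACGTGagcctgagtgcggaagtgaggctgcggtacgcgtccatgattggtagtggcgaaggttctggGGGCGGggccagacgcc
Snap47: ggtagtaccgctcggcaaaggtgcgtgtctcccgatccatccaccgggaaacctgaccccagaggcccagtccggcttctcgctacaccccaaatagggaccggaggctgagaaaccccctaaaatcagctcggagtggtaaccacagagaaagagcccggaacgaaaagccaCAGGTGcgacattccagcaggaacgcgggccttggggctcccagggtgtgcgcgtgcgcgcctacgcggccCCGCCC
The windows lie at chr6:72390668-72390917 on the minus strand for Vamp8, chr1:155158453-155158702 on the plus strand for Stx6 and chr11:59450035-59450284 on the minus strand for Snap47. By the GENCODE positions given below, the Snap47 window lies inside the gene and the Vamp8 window overlaps the start of its gene. RefSeq and GENCODE thus place these starts differently. Stx6 held 3 GC boxes and 1 E-box, which begins at -85 counted back from the gene start, Snap47 held 1 of each, and Vamp8 held none of the letters searched. Of 32851 promoters of this length, 32.7% held the GC box, 66.2% the E-box, 23.3% the ETS core, 1.55% the CRE and 0.225% the Gli letters. Among the promoters of 32 matched members, 38 in all since some genes have more than 1 start, the GC box was found in 55.3% and the Gli letters in none. These matches describe letters and are not binding sites. Snap25, Vamp2, Vamp3, Vamp7 and Napg were among those not matched.

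The mice differed in their SNARE levels before any class was compared. In progenitor-like cells, the highest mouse stood at a median of 1.55 times the lowest mouse over the 27 members with at least 100 UMIs there. Mouse 3, the shallowest library, was the lowest in 11 and the highest in 12 of these 27 members. Levels are in CPM, the UMIs of a gene per 1000000 UMIs of all genes, both summed over the cells of a class in a mouse. Gosr1, a Golgi SNARE, had 12.6, 10.7, 42.6 and 18.6 CPM in progenitor-like cells of mice 1 to 4, while Snap47 had 83.7, 64.0, 24.1 and 53.1 CPM. Mouse 3 thus stood highest for Gosr1 and lowest for Snap47, and also lowest for Vti1b, at 28.2 CPM beside 56.5 to 68.9 CPM in the other mice. Every test below compares classes within mice.

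The first comparison set the differentiating granule-like class against the progenitor-like class, and so asked how the fusion machinery differs as tumour cells leave the precursor state. Snap25, on the target side of the synaptic vesicle complex, and Vamp2, its vesicle side, were higher, together with Snap47. Stx6, the trans-Golgi and endosome syntaxin with the most UMIs in progenitor-like cells, was lower. Of the 25 members with enough counts to test, 4 rose and 1 fell in edgeR's quasi-likelihood test (adjusted p under 0.05), beside 16.5% of all 7373 genes tested (7.92% higher and 8.54% lower), so the share of members called was near that of all genes. The members' median log2 fold change was 0.27, against -0.04 for all genes, and 17 of the 25 were positive, beside 47.1% of all genes. With low-Malat1 cells left out, 13 of 24 members were positive, beside 46.9% of all genes, and the members' median was 0.18. By role, 1 of the 2 soluble Snap proteins and 1 of 4 tested Vamp genes rose, 1 of 6 tested trans-Golgi and endosome SNAREs fell, and none of 7 ER and Golgi SNAREs or 3 disassembly factors passed.

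Snap25 (chr2:136713453-136782428, plus strand, GRCm38) had 146, 191, 187 and 168 CPM in differentiating cells of mice 1 to 4, against 114, 101, 123 and 88.2 CPM in progenitor-like cells. All 4 differentiating values lay above all 4 progenitor-like values, and the log2 fold change was 0.80 ± 0.18 (SE worked back from the edgeR test, adjusted p = 0.000125, n = 4 mice). Within the differentiating class, the cluster led by Cntn2 and Neurod1 (159 cells) had 216 CPM of Snap25, and the cluster led by Stmn2 (163 cells), low in the nuclear RNA Malat1, had 110 CPM, close to the progenitor-like level. Without mouse 4 the difference was 0.62 with an adjusted p of 0.0750, and it was also not called with the cell cycle regressed out (0.53, adjusted p = 0.0952). Settings that leave mouse 3 without enough cells, at least 1000 genes per cell (0.29, 0.590) and cells thinned to 2000 UMIs (0.85, 0.0645), lost the call with 3 mice.

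Vamp2 (chr11:69088490-69092384, plus strand) had 43.8, 33.2, 136 and 112 CPM in differentiating cells, against 29.8, 32.2, 46.7 and 36.2 CPM in progenitor-like cells. The value was higher in the differentiating class of every mouse, by a wide margin in mice 3 and 4 and by little in mouse 2, so the groups overlap. The log2 fold change was 1.25 ± 0.28 (adjusted p = 0.000109). Without mouse 4, which gives 32 of the 50 UMIs, it was 0.73 with an adjusted p of 0.343. It was not called with at most 5% mitochondrial UMIs (0.55, adjusted p = 0.0907) or with thinned cells (1.19, 0.155, 3 mice) either.

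Snap47 (chr11:59407134-59451186, minus strand), found in neurons and on intracellular membranes, had 139, 99.5, 33.9 and 87.6 CPM in differentiating cells, against 83.7, 64.0, 24.1 and 53.1 CPM in progenitor-like cells. It was higher in 4 of 4 mice at 0.75 ± 0.24 (adjusted p = 0.0134), while mouse 3 was lowest in both classes and the groups overlap. The call was lost in 11 of 15 alternatives, among them the fit without mouse 1 (0.76, adjusted p = 0.0842) and without mouse 4 (0.68, 0.177), with adjusted p from 0.00343 to 0.549 over all 15. It shares 1142 bases with Jmjd4 on the other strand. Snap29, which acts in the fusion of autophagosomes with lysosomes, stood at 1.00 ± 0.50 (adjusted p = 0.185) from 13 UMIs in differentiating cells.

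**Figure D1:**
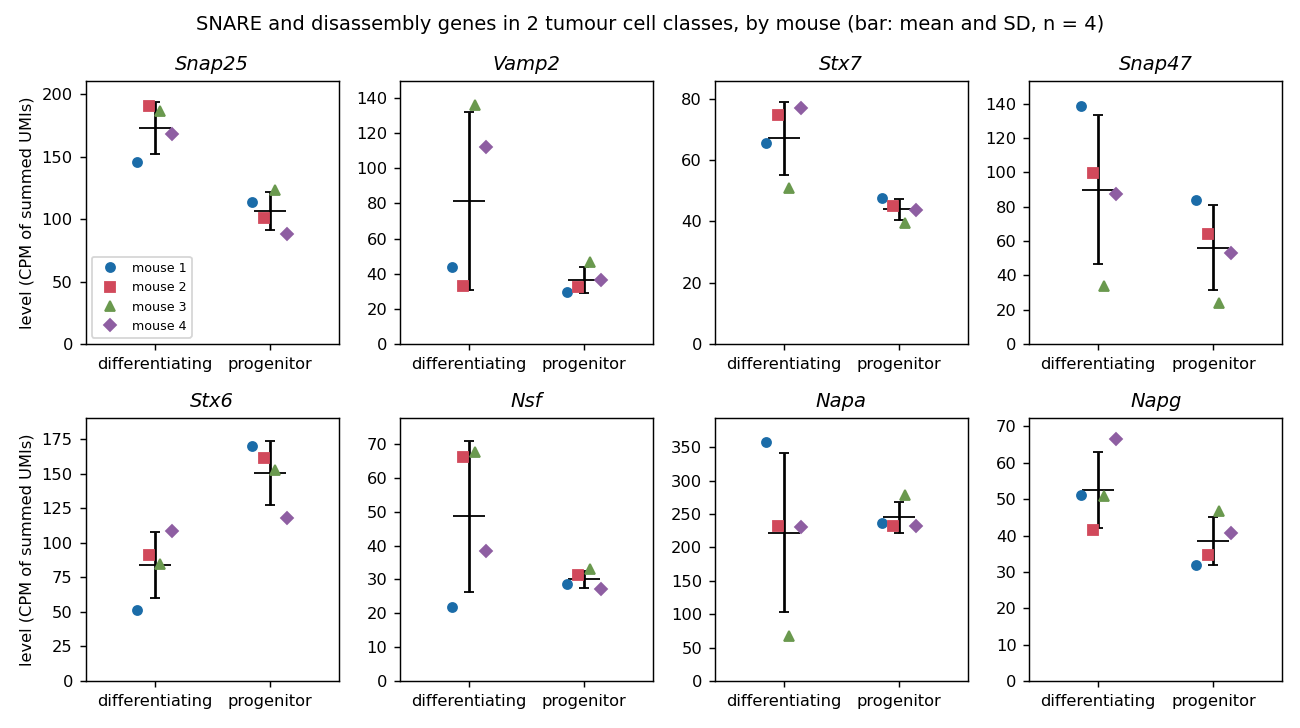
Level of 8 genes (CPM of UMIs summed per class, vertical axis from 0 in each panel) in differentiating and progenitor-like cells, with 1 symbol per mouse, the mean as a horizontal line and the SD as a vertical bar (n = 4 mice). Snap25, Stx7 and Stx6 show groups that do not overlap, with Stx6 at 51.1 to 109 CPM in differentiating cells and 118 to 170 CPM in progenitor-like cells, while Nsf, Napa and Napg overlap.

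Stx6 (chr1:155158715-155208256, plus strand) pairs with Vti1a, Stx16 and Vamp4 in transport from endosomes to the trans-Golgi. It had 51.1, 91.2, 84.8 and 109 CPM in differentiating cells of mice 1 to 4, against 170, 162, 153 and 118 CPM in progenitor-like cells. Every mouse was lower in the differentiating class, and the gap was widest in mouse 1 and narrowest in mouse 4. The log2 fold change was -0.63 ± 0.20 (adjusted p = 0.0143), and both differentiating clusters stood low, at 91.5 and 87.4 CPM. It was not called without mouse 1 (-0.37, adjusted p = 0.374), without mouse 2 (-0.59, 0.0848), in DESeq2 (-0.73, 0.128), without the mouse as a block (-0.71, 0.0610), with at least 1000 genes (-0.48, 0.302, 3 mice) or without marked doublets (-0.14, 0.510). Its partners did not pass the test, with Stx16 at 0.05 ± 0.21 (adjusted p = 0.913) and Vamp4 at -0.25 ± 0.29 (0.651), and Vti1a was too low to test. Stx16 was called higher with at most 5% mitochondrial UMIs (0.47, adjusted p = 0.0112) and without marked doublets (0.47, 0.00271). Leaving out marked doublets also meant clustering the cells anew, and the differentiating class then held 708 cells, against 322 in the fit used.

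Stx7, a syntaxin of late endosomes and lysosomes, missed the threshold at 0.73 ± 0.28 (adjusted p = 0.0509). It had 65.7, 74.6, 50.9 and 77.1 CPM in differentiating cells, against 47.8, 45.0, 39.4 and 43.8 CPM in progenitor-like cells, with no overlap. It was called higher in 6 alternatives, with values from 0.57 to 1.16 and adjusted p from 9.15e-07 to 0.0421. Its lysosomal partners stood at 0.35 ± 0.27 for Vti1b (adjusted p = 0.441), 0.27 ± 0.35 for Stx8 (0.694) and -0.12 ± 0.32 for Vamp7 (0.868). Stx12, a further endosomal syntaxin, stood at 0.35 ± 0.19 (0.230). In the ER and Golgi group, none of 7 tested members passed, with log2 fold changes from -0.64 for Bet1 to 0.55 for Stx5a.

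At the plasma membrane, the general syntaxin Stx4a stood at -0.39 ± 0.36 (adjusted p = 0.544), and Stx1a, with 95 UMIs in all, was too low to test.

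The disassembly factors did not pass the test either. Nsf, the ATPase, had 21.9, 66.3, 67.8 and 38.5 CPM in differentiating cells, against 28.7, 31.3, 33.0 and 27.2 CPM in progenitor-like cells, a log2 fold change of 0.63 ± 0.35 (adjusted p = 0.231). Napg stood at 0.61 ± 0.31 (adjusted p = 0.177), higher in 4 of 4 mice, with 51.1, 41.5, 50.9 and 66.6 CPM against 32.0, 34.7, 46.7 and 40.7 CPM in progenitor-like cells. Napa, the general adaptor, had 358, 232, 67.8 and 231 CPM in differentiating cells, against 236, 233, 279 and 232 CPM in progenitor-like cells, and 0.07 ± 0.14 (adjusted p = 0.811). Its value in mouse 3 rests on 4 UMIs. Within the differentiating class, the Cntn2-led cluster had 59.0 CPM of Nsf and 76.8 CPM of Napg, and the low-Malat1 cluster 22.8 and 30.4 CPM.

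The shares of sister genes within a class do not depend on the total of the class, so 3 pairs were set side by side: Snap25 with the general Snap23, Vamp2 with the general Vamp3, and Napb, the brain form of the adaptor, with Napa. Snap25 made up 97.8% ± 2.59 of the first pair's UMIs in differentiating cells and 88.2% ± 2.91 in progenitor-like cells (SD, n = 4 mice), a difference of 9.59 ± 3.12 percentage points that had the same direction in 4 of 4 mice. Vamp2 made up 64.6% ± 7.69 of its pair in differentiating cells and 40.0% ± 2.19 in progenitor-like cells, 24.6 ± 8.86 points higher, again in 4 of 4 mice. Both differences exceeded the spread over mice, and both reached p = 0.125 in an exact two-sided sign-flip test, the smallest p that 4 mice allow. At Leiden resolution 2, a finer clustering, the Snap25 difference was 5.85 ± 5.86 points, higher in 3 of 4 mice (exact p = 0.25). With cells thinned to 2000 UMIs the Vamp2 share was higher in 2 of 3 mice.

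Counts behind the shares were low in the differentiating class. Snap23 had 2 UMIs there, 1 each in mice 1 and 2, and mouse 3 rests on 11 UMIs of the pair, with an exact Clopper-Pearson 95% interval for Snap25 of 71.5 to 100%. The Vamp2 share in mouse 2, 57.1% of 7 UMIs, has an interval of 18.4 to 90.1%, and that in mouse 4, 74.4% of 43 UMIs, one of 58.8 to 86.5%. For both Snap25 and Vamp2, the differentiating interval of mice 1, 2 and 3 included the progenitor-like share of the same mouse, and that of mouse 4 did not. These intervals cover counting error only. Vamp3 itself stood at -0.51 ± 0.33 (adjusted p = 0.328), with 40.1 ± 19.3 CPM in differentiating cells and 54.1 ± 8.85 CPM in progenitor-like cells, and lies wholly within Camta1 on the same strand, which leaves its counts uncertain. Napb made up 4.50% ± 5.23 of its pair in differentiating cells and 3.51% ± 0.447 in progenitor-like cells, a difference of 0.998 ± 4.94 points, higher in 2 of 4 mice (exact p = 0.75). Napb was 11.5 ± 13.3 CPM in differentiating cells and 8.88 ± 1.15 CPM in progenitor-like cells, too low to test.

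**Figure D2:**
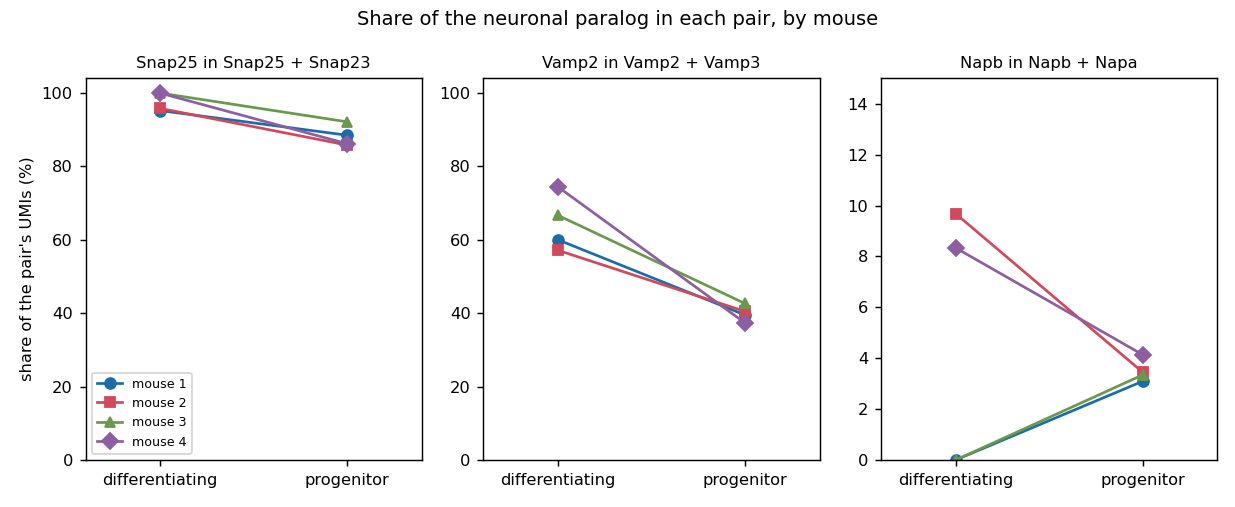
Share of the neuronal gene in the UMIs of each sister pair (percent, vertical axis; the right panel is drawn to 15%) in differentiating and progenitor-like cells, with 1 line per mouse. Snap25 and Vamp2 shares are higher in the differentiating class in 4 of 4 mice, and the Napb share is higher in 2 of 4.

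A list of 38 genes outside the module, called regulators here, was counted next. Most act on SNAREs, but the list also holds ER proteins such as Use1, itself a SNARE. In differentiating cells 21 were tested, of which 5 rose and 1 fell, beside 7.92% higher and 8.54% lower among all 7373 genes tested. Syt1, the calcium sensor of synaptic release, averaged 23.6 ± 8.07 CPM in differentiating cells, from 13 UMIs, and 1.61 ± 1.00 CPM in progenitor-like cells, from 15 UMIs (3.74 ± 0.62, adjusted p = 7.09e-08). Syt1 had enough counts to test in this comparison only, through the class where it is high, so its call is given as a description. With no filter on low counts it stood at 3.60 (adjusted p = 0.000163). Cplx1, a complexin that clamps the complex, stood at 0.94 ± 0.25, Syt11 at 0.85 ± 0.15 and Use1, an ER SNARE outside the rule, at 0.61 ± 0.16. Syt13 was lower at -1.98 ± 0.37, with 17.0 ± 13.0 CPM in differentiating cells and 76.0 ± 9.84 CPM in progenitor-like cells. Syt1, Syt11 and Syt13 were called in every alternative in which they were tested, while Cplx1 and Use1 were each lost in 6 of 15. Unc13a, a priming factor (0.52 ± 0.38, adjusted p = 0.413), and Cplx2 (0.20 ± 0.17, 0.478) did not pass.

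The differentiating class also differed in cell quality. Cells with under 30 Malat1 UMIs per 10000, a sign of little nuclear RNA, were 39.4% of differentiating cells and 19.8% of progenitor-like cells, and median depths were 1483 and 2201 UMIs. Leaving out low-Malat1 cells kept the number of called members at 5, though Snap47 was not called then (0.50, adjusted p = 0.289) and Stx5a was called in its place (0.82, 0.00941). The part of depth in the other values was not tested beyond the alternatives named.

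Progenitor-like cells were then parted by cell cycle scores, to ask whether the Golgi and plasma membrane SNAREs move as tumour cells replicate and divide. Stx6 and Stx16, partners on the same trans-Golgi route, were lower in S-phase cells than in non-cycling cells, and Stx18, a syntaxin of the ER, was higher. In G2M-phase cells Stx6, Stx16 and Snap25 were lower. The classes held 1178 S-phase, 1394 G2M-phase and 892 non-cycling cells, where non-cycling means a score above 0 for neither list. Of 24 members tested in S phase, 1 rose and 2 fell, beside 17.4% of all 6760 genes tested (9.78% higher and 7.66% lower). Of 26 tested in G2M phase, 3 fell and none rose, beside 23.3% of 7046 genes (12.9% higher and 10.4% lower). Among the 6 tested trans-Golgi and endosome SNAREs 2 fell in each phase, with medians of -0.22 in S phase and -0.35 in G2M phase. For these 6 genes the share lower was above that of all genes, but only through Stx6 and Stx16 both times, so nothing is read for the group. Over all members tested, the share called in either direction lay below that of all genes in both phases. Medians were -0.08 for members against -0.02 for all genes in S phase, and -0.13 against -0.03 in G2M phase. The S-phase and G2M-phase comparisons share the same non-cycling cells, so like values in them are not independent.

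Stx6 had 152, 149, 156 and 130 CPM in S-phase cells and 152, 156, 130 and 108 CPM in G2M-phase cells of mice 1 to 4, against 214, 187, 202 and 122 CPM in non-cycling cells. Mice 1 to 3 were lower in both cycling classes, while in mouse 4 S-phase cells stood above non-cycling cells. The log2 fold changes were -0.31 ± 0.11 in S phase (adjusted p = 0.0254) and -0.34 ± 0.11 in G2M phase (adjusted p = 0.00960). In S phase the call was lost without mouse 1 (-0.20, adjusted p = 0.404), mouse 2 (-0.30, 0.109) or mouse 3 (-0.30, 0.0512), and in G2M phase without mouse 1 (-0.28, 0.168) or mouse 3 (-0.29, 0.0580). Among the progenitor-like clusters, Stx6 was at 192 CPM in the one led by Hes1, which is mostly from mouse 1 (448 of 690 cells), and at 102 to 156 CPM in the others.

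Stx16 (chr2:174076308-174099771, plus strand) had 89.8, 97.6, 87.6 and 103 CPM in S-phase cells and 74.7, 96.2, 128 and 100 CPM in G2M-phase cells, against 115, 140, 138 and 126 CPM in non-cycling cells. All 4 mice were lower in S phase with no overlap, at -0.43 ± 0.13 (adjusted p = 0.00932), and all 4 were lower in G2M phase, where mouse 3 kept a high level, at -0.39 ± 0.12 (adjusted p = 0.0135). Without mouse 2 the S-phase value was -0.39 with an adjusted p of 0.0767. In G2M phase the call was lost without mouse 1 (-0.31, 0.160) or mouse 2 (-0.34, 0.0863). The share of low-Malat1 cells was 18.9% in S-phase cells and 27.8% in G2M-phase cells, against 8.30% in non-cycling cells, and Stx16 was itself low in low-Malat1 cells, as given in the closing part. With such cells left out, G2M-phase cells stood at -0.30 (adjusted p = 0.0684), and the S-phase call remained.

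Snap25 had 97.3, 79.2, 109 and 80.5 CPM in G2M-phase cells, against 138, 121, 150 and 117 CPM in non-cycling cells. G2M-phase cells were lower in each mouse, without overlap, at -0.49 ± 0.12 (adjusted p = 0.00121). The call held in 12 of 14 alternatives, the exceptions being DESeq2 (-0.48, 0.129) and the fit without the mouse as a block (-0.49, 0.0758). In S-phase cells Snap25 stood between, with 110, 111, 126 and 86.1 CPM, at -0.30 ± 0.13 (adjusted p = 0.0910). Markers of differentiating granule cells, in whose class Snap25 was high, were at 19.3 UMIs per 10000 in S-phase cells and 19.6 in G2M-phase cells, against 22.8 in non-cycling cells, and the part of that difference in the Snap25 values was not tested.

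Stx18 (chr5:38038742-38137765, plus strand) had 30.6, 34.5, 17.0 and 23.2 CPM in S-phase cells, against 17.1, 17.0, 3.96 and 19.9 CPM in non-cycling cells. It was higher in 4 of 4 mice at 0.79 ± 0.30 (adjusted p = 0.0462) and stood at 0.63 ± 0.29 in G2M phase (adjusted p = 0.106). The S-phase groups overlap, and the non-cycling value of mouse 3 rests on 1 UMI. The call was lost in 9 of the 11 alternatives that gave a value, among them the fits without mouse 2 (0.71, adjusted p = 0.201) and mouse 3 (0.72, 0.0908), and held with library totals (0.79, 0.0456) and without mouse 4 (0.99, 0.0468). Stx18 overlaps Nsg1 by 574 bases on the other strand. Neither phase comparison gave a called member in DESeq2 or without the mouse as a block.

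**Figure D3:**
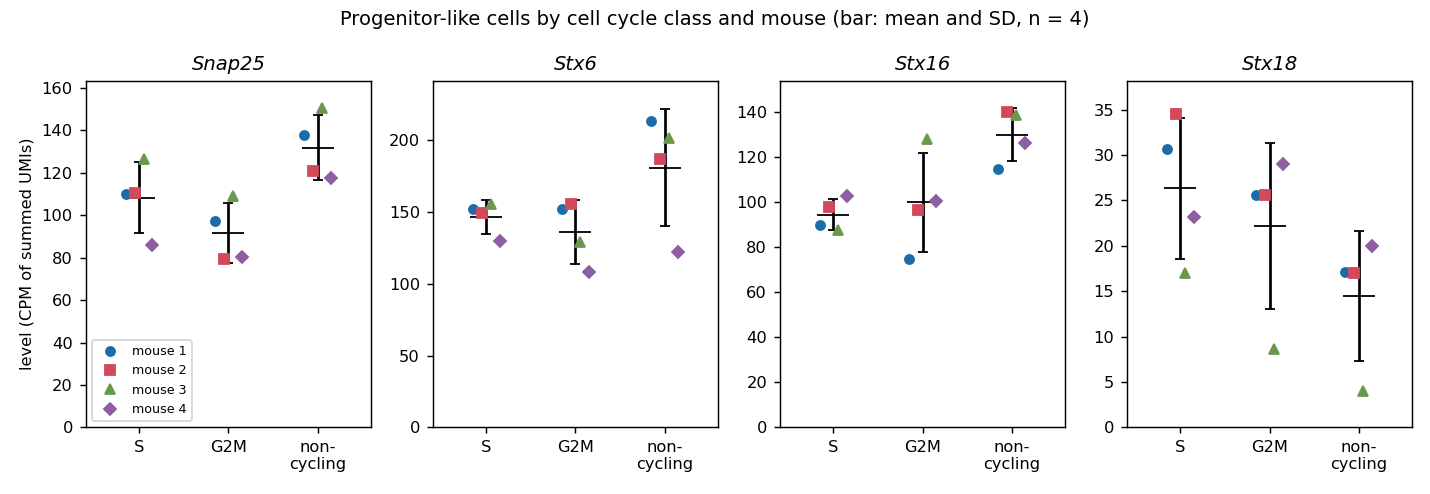
Level of Snap25, Stx6, Stx16 and Stx18 (CPM of summed UMIs, vertical axis from 0) in S-phase, G2M-phase and non-cycling progenitor-like cells, with 1 symbol per mouse, the mean as a horizontal line and the SD as a vertical bar (n = 4 mice). Snap25, Stx6 and Stx16 have their highest means in non-cycling cells, and Stx18 has its lowest mean there.

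The disassembly factors and most Vamp genes did not pass in either phase. Napa averaged 248 ± 14.9 CPM in S-phase cells and 243 ± 32.8 CPM in G2M-phase cells, against 244 ± 25.1 CPM in non-cycling cells. Nsf averaged 31.8 ± 7.89 CPM in S-phase cells and 28.3 ± 2.13 CPM in G2M-phase cells, against 31.4 ± 4.82 CPM in non-cycling cells. Napg averaged 37.5 ± 9.80 CPM in S-phase cells and 41.0 ± 7.24 CPM in G2M-phase cells, against 35.6 ± 7.85 CPM in non-cycling cells. For all 3 factors the values of the mice overlapped between the classes. Vamp2 averaged 33.0 ± 14.3 CPM in S-phase cells and 36.2 ± 3.93 CPM in G2M-phase cells, against 40.5 ± 9.53 CPM in non-cycling cells. Vamp3 and Snap23, at 54.9 ± 12.7 and 11.1 ± 2.48 CPM in S-phase cells, 51.1 ± 7.51 and 13.6 ± 3.57 CPM in G2M-phase cells and 58.0 ± 14.2 and 19.9 ± 4.66 CPM in non-cycling cells, did not pass where tested. Of 16 regulators tested in S phase, 1 rose and 2 fell, beside 17.4% of all genes called. Of 17 tested in G2M phase, 2 rose and 3 fell, beside 23.3% of all genes. Stxbp6 was higher in both phases (0.94 ± 0.25 in S phase and 0.95 ± 0.25 in G2M phase) and Use1 lower in both (-0.46 ± 0.11 and -0.32 ± 0.10). Syt11 was lower in S phase (-0.36 ± 0.11). In G2M phase Syt13 was higher (0.79 ± 0.15), and the ER proteins Sec22a (-0.71 ± 0.19) and Scfd1 (-0.53 ± 0.15) were lower.

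The classes named by markers from outside the granule lineage were each compared with all granule-lineage-like cells, progenitor-like and differentiating together. In myeloid-like cells Vamp8 was far above the tumour lineage, and Stx7 was also higher. Vamp8 pairs with Stx7, Stx8 and Vti1b in late endosome fusion and serves secretion in immune cells. Of 26 members tested, 2 rose and none fell, 1 of the 2 being Vamp8, which had enough counts to test only through this class, beside 15.3% of all 6510 genes (3.9% higher and 11.4% lower). The normalisation lowered myeloid-like levels relative to library totals in every mouse, by up to 0.91 on the log2 scale, and the median over all genes was -1.11 with it and -0.67 with library totals alone. No lower value is therefore read here. With library totals alone, 320 of 660 called genes were higher, against 254 of 996 in the fit used, and the number of members called stayed at 2.

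Vamp8 (chr6:72385223-72390703, minus strand) had 224, 111, 481 and 259 CPM in myeloid-like cells of mice 1 to 4, from 5, 1, 4 and 7 UMIs, against 0.685, 1.85, 0 and 1.26 CPM in granule-lineage-like cells. Every myeloid-like value was far above every tumour-lineage value, and the fitted log2 fold change was 7.49 ± 0.66 (adjusted p = 2.56e-27). It was called in every alternative run, with values from 7.06 to 8.03 and adjusted p from 1.16e-27 to 6.01e-11. Since the count filter kept Vamp8 only because of the class where it is high, the call is given as a description, and with no filter on low counts it stood at 7.12 (adjusted p = 9.16e-14). Vamp8 was seen in 14 of 39 myeloid-like cells and in 10 of 3786 granule-lineage-like cells, whose median depth was larger (1236 and 2117.5 UMIs).

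Vamp8 was also found in the 5 choroid-plexus-like cells of mice 1 and 4, at 1095 and 1125 CPM from 6 and 20 UMIs. These cells, too few to test, held 26 of its 59 UMIs, and with the myeloid-like cells 43 of 59, in 44 of 4137 cells. Vamp8 stood among the 10 leading genes of the choroid-plexus-like cluster, although it was kept out of the clustering. Astroglia-like cells had 6 UMIs, and oligodendrocyte-lineage-like cells had 0 of 294193 UMIs, which allows up to 10.2 CPM (3 counts). The myeloid-like class is itself mixed. Myeloid markers were at 398 UMIs per 10000, all 18 detected, and neutrophil markers at 248, running from 0 to 583 over the mice. The astroglia list stood at 326 UMIs per 10000 in the class (183 to 412 over the mice), against 94.0 in astroglia-like cells, and 324 of it was Apoe, which myeloid cells also express. The other 14 genes held 11 UMIs, with 6 of all 15 detected and Gfap, Aqp4 and S100b at 0. Low-Malat1 cells were 43.6% of myeloid-like cells and 21.4% of granule-lineage-like cells. The part of neutrophil-like and astroglia-like transcripts in the Vamp8 level was not tested. Of 15 regulators tested, Syt13 alone was called, beside 15.3% of all genes tested. It was lower with 0 of 66727 UMIs (up to 45.0 CPM allowed by 3 counts), a direction not read here.

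Stx7 (chr10:24149302-24190222, plus strand) had 179, 222, 120 and 259 CPM in myeloid-like cells, from 14 UMIs, against 48.6, 46.6, 39.9 and 46.8 CPM in granule-lineage-like cells. The groups did not overlap, at 1.86 ± 0.58 (adjusted p = 0.0135). The call was lost without mouse 1 (1.92, adjusted p = 0.101), without mouse 4 (1.45, 0.353) and with no filter on low counts (1.49, 0.0606). Across the classes Stx7 averaged 195 ± 59.5 CPM in myeloid-like cells, 76.8 ± 26.2 in oligodendrocyte-lineage-like cells, 71.4 ± 44.1 in astroglia-like cells, 67.1 ± 11.9 in differentiating cells and 44.0 ± 3.47 in progenitor-like cells. Oligodendrocyte-lineage-like, astroglia-like and differentiating cells did not differ beyond their spread in that order. Snap23 had 4 UMIs in myeloid-like cells, 1 in each mouse, at 78.2 ± 43.4 CPM against 13.3 ± 2.61 CPM in granule-lineage-like cells (1.84 ± 0.99, adjusted p = 0.188). The lysosomal Vti1b (1.25 ± 0.62, adjusted p = 0.157) and Ykt6 (1.44 ± 0.68, 0.134) did not pass.

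**Figure D4:**
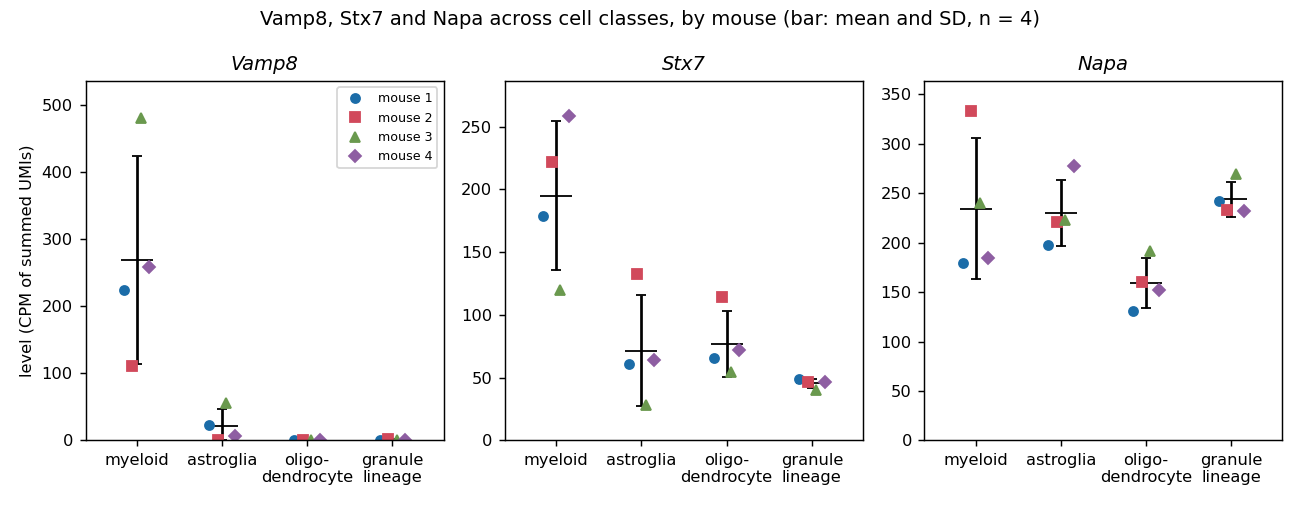
Level of Vamp8, Stx7 and Napa (CPM of summed UMIs, vertical axis from 0) in myeloid-like, astroglia-like, oligodendrocyte-lineage-like and granule-lineage-like cells, with 1 symbol per mouse, the mean as a horizontal line and the SD as a vertical bar (n = 4 mice). Vamp8 lies at 111 to 481 CPM in myeloid-like cells and under 2 CPM in granule-lineage-like cells, and Napa is lowest in oligodendrocyte-lineage-like cells.

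In the fit used, oligodendrocyte-lineage-like cells had less Napa than the tumour lineage. They came from a cluster of 116 cells led by Ptprz1 and a smaller one of 25 cells, 22 of which were from mouse 4. Napa was at 136 CPM in the larger cluster (30 UMIs) and at 216 CPM in the smaller one (16 UMIs). The progenitor-like clusters had 226 to 252 CPM, so the low level lay mainly in the Ptprz1-led cluster. Of 25 members tested, 1 fell and none rose, beside 21.9% of all 7468 genes (11.5% higher and 10.4% lower), a share below that of all genes. Napa (chr7:16098458-16117975, plus strand) had 131, 160, 192 and 152 CPM in these cells of mice 1 to 4, against 242, 233, 270 and 232 CPM in granule-lineage-like cells. The groups did not overlap, at -0.66 ± 0.25 (adjusted p = 0.0424). The call was lost in 9 of 13 alternatives, with adjusted p from 0.00451 to 0.211, among them the fits without mouse 1 (-0.62, 0.127), mouse 2 (-0.75, 0.0722), mouse 3 (-0.72, 0.0565) or mouse 4 (-0.76, 0.0582).

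The other members did not pass in the fit used for the oligodendrocyte lineage. Stx6 averaged 107 ± 67.7 CPM there and 147 ± 21.1 CPM in granule-lineage-like cells (-0.80 ± 0.31, adjusted p = 0.0571). It was called lower in 3 alternatives, with no filter on low counts (-1.07, adjusted p = 0.00968), without mouse 3 (-1.15, 0.0127) and without low-Malat1 cells (-0.83, 0.0460). Nsf had 175, 103, 0 and 8.03 CPM, against 28.4, 33.2, 34.6 and 28.2 CPM in granule-lineage-like cells, at 0.98 ± 0.47 (adjusted p = 0.130), so mice 1 and 2 were high and mice 3 and 4 low. Nsf was called higher without marked doublets (1.23, adjusted p = 0.0217) and without mouse 4 (1.50, 0.0334). Snap25 was at 79.1 ± 9.66 CPM, against 111 ± 13.1 CPM in granule-lineage-like cells (-0.44 ± 0.33, adjusted p = 0.387), and Vamp2 at 58.4 ± 19.3 CPM, against 39.1 ± 9.49 CPM. Of 18 regulators tested, Syt11 (1.36 ± 0.21) and Scfd2 (1.65 ± 0.61) were higher, and Cplx2 (-2.04 ± 0.38), Syt13 (-1.82 ± 0.52) and Use1 (-0.81 ± 0.31) lower. Over all genes tested 11.5% were higher and 10.4% lower. Scfd2 had enough counts to test in this comparison only and was not called with no filter (1.39, adjusted p = 0.142). Cplx2, a complexin, averaged 40.4 ± 13.2 CPM in the oligodendrocyte lineage and 156 ± 20.7 CPM in granule-lineage-like cells.

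In astroglia-like cells no member of 25 tested passed edgeR's test, beside 3.6% of all 7220 genes (2.65% higher and 0.956% lower), and none passed in DESeq2. At an unadjusted p under 0.05 there were 5 in edgeR and 0 in DESeq2. The 5 were Vamp7 (0.82 ± 0.32, adjusted p = 0.175), Stx7 (0.70 ± 0.34, 0.341), Snap25 (-0.69 ± 0.30, 0.265), Stx16 (-0.61 ± 0.30, 0.360) and Stx6 (-0.49 ± 0.25, 0.366). Snap25 had 91.4, 44.3, 83.7 and 42.7 CPM in astroglia-like cells, against 115, 106, 126 and 95.4 CPM in granule-lineage-like cells, and was lower in 4 of 4 mice without overlap. Low-Malat1 cells were 62.7% of astroglia-like cells and 21.4% of granule-lineage-like cells, and median depths were 1643 and 2117.5 UMIs. In myeloid-like cells it was at 20.4 ± 23.8 CPM, from 2 UMIs. Of the called genes of this comparison 191 of 260 were higher with the fit used, against 182 of 317 with library totals alone. None of 16 regulators tested passed in edgeR, with 4 at an unadjusted p under 0.05.

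**Figure D5:**
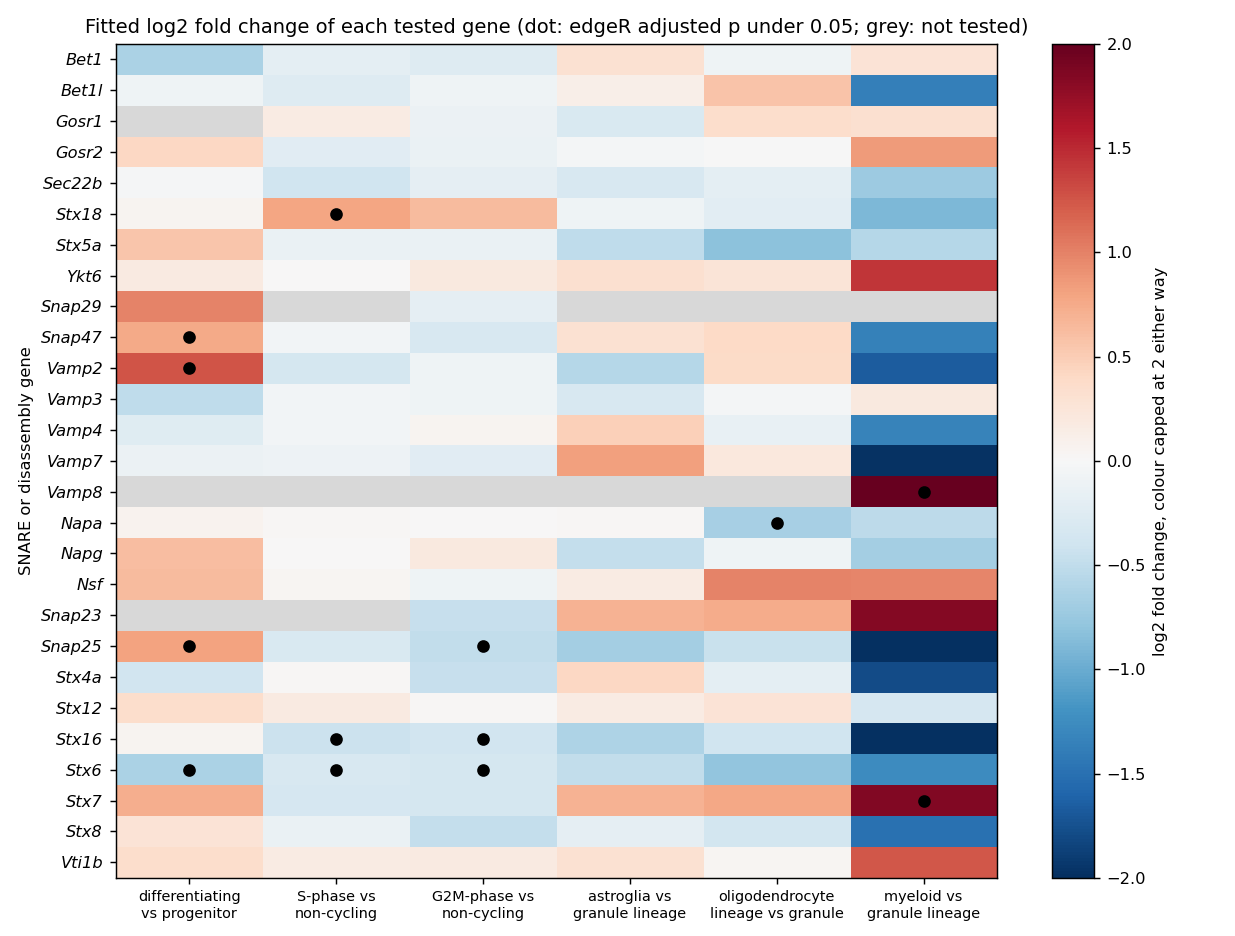
Fitted log2 fold change (colour, capped at 2 either way) of 27 members tested in at least 1 of 6 comparisons, with members as rows, comparisons as columns, grey for not tested and a dot for an edgeR adjusted p under 0.05. Dots fall on 9 members, and the myeloid column carries the low shift described for its normalisation.

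Over the 6 comparisons, 28 members were tested at least in 1 and 10 were called somewhere, among them Napa, Snap25, Snap47, Stx16, Stx18, Stx6, Stx7, Vamp2 and Vamp8. The 10 never tested in these fits, for too few counts, were Napb, Stx1a, Stx2, Stx3, Stx11, Stx17, Stx19, Vamp1, Vamp5 and Vti1a. Of these, Stx17 was called higher in the oligodendrocyte lineage without mouse 4 (1.96, adjusted p = 0.0422). Stx6 was called in 3 comparisons, lower each time against progenitor-like or non-cycling cells, and Snap25 in 2, higher in differentiating and lower in G2M-phase cells.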

How the data were processed

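The authors deposited UMI counts per gene and cell for each of the 4 mice, not normalised, as the whole numbers in the files show. Per the submitters' processing notes, the tools were Cell Ranger 2.0.2 and Seurat, with mm10 as the build, and the annotation release and strand setting are not given in the sources used here. Members and lists were chosen with earlier results of these data known. Each member called was to be given in full, with Stx6, Snap25, Vamp2, Nsf, Napa, Napb, Napg, Snap23 and Vamp3 whether called or not, and of the regulators those called.

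Cells with at least 500 genes and at most 10% mitochondrial UMIs were kept. Scrublet marked 36 cells (0.87%), 30 of them in mouse 3, and the cells were kept, since the rate differed so much between libraries. Clustering used scanpy 1.11.5 and leidenalg 0.10.2 (Python 3.11.15): counts per 10000, log1p, 2000 variable genes, 30 components, 15 neighbours and Leiden resolution 1. Members, regulators, cell cycle, mitochondrial and ribosomal genes were held out. Classes outside the granule lineage needed 3 markers, each 1 log2 unit above the level over all kept cells, the cluster included, and in 10% of its cells. For this ratio 10 CPM were added to both levels. Granule-lineage clusters whose differentiating markers had a median log2 ratio of at least 0.5, above that of the progenitor markers, were called differentiating, and the rest progenitor-like by default.

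UMIs were summed per mouse and class (at least 10 cells, or 5 for myeloid-like cells) and tested with edgeR 4.0.16 (R 4.3.3; TMM, filterByExpr, mouse as block, Benjamini-Hochberg over all genes, 0.05). The fit was also run on simulated counts that held no mouse effect, so that run does not bear on the mouse block. Classes of a mouse share an animal, and their deviations from class means correlated at 0.159 to 0.263 for the differentiating, 0.206 to 0.451 for the S-phase, 0.221 to 0.471 for the G2M-phase and 0.0152 to 0.202 for the other comparisons. Alternatives were DESeq2 1.42.0, no filter, no block, each mouse left out, 5% mitochondrial, 1000 genes, Leiden resolution 2, cell cycle regressed out, low-Malat1 cells left out and thinning to 2000 UMIs. A further pair was added after seeing the data, library totals without TMM and marked doublets left out. Gene positions come from GENCODE M21, with 37 of 38 members matched. Some items are not reported here, though counts over the members and regulators include them.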

Additional observations from a re-analysis of the deposited data

Results flagged for a closer look

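Napa in progenitor-like cells of mouse 3 stood at 279 CPM, away from the other 3 mice, which lay at 232 to 236 CPM. Its gap to the next mouse took up 0.899 of the range over the 4 mice, past the 95% limit of Dixon's test, and it was the only one of 38 such groups of 4 values to do so, where chance alone flags about 1 in 20. Mouse 3 is the shallowest library, and for Napa its progenitor-like value rests on 347 UMIs. In the differentiating class the same mouse had the lowest Napa value, 67.8 CPM from 4 UMIs.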

How the results depend on the processing

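For the differentiating class, 5 called members became 3 in DESeq2, 3 with no replicate block, 2 with at least 1000 genes, 8 at Leiden resolution 2, 1 with cells thinned to 2000 UMIs and 2 to 6 with a mouse left out. For S phase, 3 became 0 in DESeq2, 0 with no replicate block, 0 when thinned, 0 to 3 with a mouse left out, and 1 each with no filter on low counts, at most 5% mitochondrial UMIs, at least 1000 genes, Leiden resolution 2 or marked doublets left out. For G2M phase, 3 became 0 in DESeq2, 0 with no replicate block, 1 each with no filter, at least 1000 genes or thinning, and 1 to 3 with a mouse left out. For astroglia-like cells 0 became 1 at Leiden resolution 2, which was Stx7 (1.15, adjusted p = 0.0362). For the oligodendrocyte lineage, 1 became 0 in DESeq2, with library totals, at least 1000 genes or Leiden resolution 2, 2 with no filter or without marked doublets, and 0 to 2 with a mouse left out. For myeloid-like cells, 2 became 1 with no filter and 1 to 3 with a mouse left out. The block ties classes of the same mouse, and its removal moved the number of called members by at least 1.5 times for the differentiating, S-phase, G2M-phase and myeloid-like comparisons (3 for 2 in the last). The causes were not tested. The Snap25 share was 5.85 ± 5.86 points higher at Leiden resolution 2 (3 of 4 mice, exact p = 0.25) and 15.2 points when thinned, against 9.59, and 9.45, 8.18, 10.2 and 10.5 with a mouse left out. Of 718 values of 53 results on named genes, 628 kept direction and side of the threshold, 83 lost and 7 gained the call, and none reversed. Over all members, 25 values, of 13 members and with these 7 among them, passed under an alternative where the fit used gave no call. Over all genes, called counts ran from 412 when thinned to 1561 at Leiden resolution 2 for the differentiating class (1214 in the fit used), from 355 for S phase (1179) and 560 for G2M phase (1641) with no block, from 114 for astroglia-like cells (260) and 674 for the oligodendrocyte lineage (1633) with at least 1000 genes (160 for astroglia-like cells with no block), and from 504 without mouse 4 to 1648 with no filter for myeloid-like cells (996). With no block, lower genes in myeloid-like cells numbered 1156 (742). DESeq2 gave 315 higher and 106 lower genes for S phase, 422 and 161 for G2M phase, 154 and 9 for astroglia-like cells and 280 and 247 for myeloid-like cells. Thinning for the 3 classes outside the granule lineage, the 5% limit for the oligodendrocyte lineage, the 1000-gene minimum for myeloid-like cells and cell cycle regression for the phases were not run.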

Other observations

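Stx16 stood apart from the other members in cells low in Malat1. In the 685 progenitor-like cells with under 30 Malat1 UMIs per 10000 it had 23.8, 36.5, 43.8 and 40.3 CPM in mice 1 to 4, against 99.6, 119, 121 and 115 CPM in the other 2779 progenitor-like cells. The low-Malat1 mean was 0.318 times the other mean, from 35 UMIs, the lowest ratio of the 27 members with at least 100 UMIs. Nsf followed at 0.608, the median ratio over these members was 0.963, and the highest were Vti1b at 1.58 and Stx12 at 1.32, both higher in low-Malat1 cells of 4 of 4 mice. Median depths were 1143 UMIs in low-Malat1 cells and 2515 in the others. This split was chosen after seeing the data and was given no test. In the cluster of 716 cells with the least Malat1 of the progenitor-like clusters, Stx16 had 23.6 CPM, against 92.6 to 160 CPM in the other progenitor-like clusters.

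Snap47 was at 365 and 225 CPM in the choroid-plexus-like cells of mice 1 and 4, from 6 UMIs in 5 cells. Of the Vamp8 partners, Vti1b was at 301 CPM and Stx7 at 129 CPM (3 UMIs) over those cells, and Stx8 had 0 UMIs. Snap25, Stx6, Nsf and Napg also had 0 UMIs there. With 5 cells these values were not tested.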
